A study of Mus musculus with 29 samples.

Results

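The glutathione transferases (GSTs) and UDP-glucuronosyltransferases (UGTs) of the liver were described in bulk RNA-seq of whole mouse liver. Members were selected on gene name and abundance: names beginning with Gsta, Gstk, Gstm, Gsto, Gstp, Gstt, Gstz, Mgst, Ugt1, Ugt2 or Ugt3, with at least 100 counts summed over the 27 mice that had counts. This gave 40 of the 55421 genes in the count table, 23 GSTs and 17 UGTs, out of 46 matching names. The summed count is the value that chose them, and it uses no comparison between groups. A member high in only some groups can reach the threshold through those groups. Just inside the threshold was Mgst2 with 113 counts, and just outside was Gsto2 with 71. Gstt4 with 6, Ugt1a8 with 10, Ugt1a2 with 22, and Ugt2a1 and Ugt2a2 with 0 were also left out.

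The study asked how HDM201, an inhibitor of MDM2 that stabilises the transcription factor p53, acts in aged tissue. Livers came from 6 groups. Old C57BL/6J females, 20 months of age on their labels, received vehicle (4 mice) or HDM201 at 10 mg/kg (5 mice), and old C57BL/6J males of 24 months received vehicle (4 mice with counts) or the same dose (5 mice). Young vehicle mice were C57BL6/N, labelled 5 months, with 5 females and 4 males with counts. Dosing was by daily oral gavage for 14 days. Since every old mouse was of one substrain and every young mouse of the other, age and substrain cannot be told apart. The old females and old males also differed in age, so in old mice sex and age cannot be told apart either. A further 2 males, 1 old vehicle and 1 young vehicle, had FPKM values but no counts. The livers are whole tissue, so fewer cells of a type and less RNA per cell cannot be told apart in any result below. RNA was isolated from fresh liver with Trizol, per the labels.

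Both families carry out conjugation, the step that makes reactive or fat-soluble compounds water-soluble so that they can leave the hepatocyte in bile or blood. GSTs join the tripeptide glutathione to electrophiles, and most are soluble enzymes grouped into classes named by Greek letters, while the microsomal GSTs are membrane proteins of a separate origin. UGTs sit in the endoplasmic reticulum and transfer glucuronic acid from UDP-glucuronate to bilirubin, steroids, bile acids and drugs. In rodent liver several of these genes are known to be induced through NRF2, CAR, PXR and AhR, and some to be set by the sex-specific pattern of growth hormone release.

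Total counts ran from 16485900 to 23570458 per mouse, so 1 count in the shallowest library is 0.0607 CPM, and log2 values of mice in the same group correlated at 0.954 to 0.992. Labelled sex matched in all 27 mice with counts: Xist was at 273 to 511 CPM in females and at 0.317 CPM or less in males, and the Y-linked Ddx3y was at 0 in every female and at 41.2 CPM or more in every male. Nnt, a gene in which C57BL/6J carries a deletion, was at 1.27 to 3.43 CPM in old and 2.24 to 4.41 CPM in young mice, so its level did not separate the labelled substrains. Another entry of the same name was at 0 in every mouse. The hepatocyte markers (Alb, Apoa1, Ttr, Serpina1a, Cps1, Tat and Hnf4a) summed to 75821 to 158030.0 CPM in every group's mice, with none at 0. The summed Kupffer cell and macrophage markers moved between groups: 197 to 295 CPM in young vehicle females, 305 to 591 in old vehicle females and 185 to 297 in HDM201-treated females, against 80.0 to 189, 127 to 394 and 180.5 to 458 in the corresponding males.

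Most members lie in tandem clusters, and sequence likeness limits which of them can be told apart by counting reads. On GRCm38, 7 mu-class genes lie within 149.1 kb of chromosome 3, 7 UGT1A genes within 164.6 kb of chromosome 1, 7 UGT2B genes within 534.4 kb of chromosome 5, and Gstp1, Gstp2 and Gstp3 within 24.2 kb of chromosome 19. The coding sequences of Gstp1 (chr19:4035407-4037985, minus strand) and Gstp2 (chr19:4040285-4046023, minus strand) are 633 bases each and 98.1% identical, with 12 bases different. Reads that lie wholly within the coding sequence can be assigned to one gene or the other only where they cross such a base. Over whole transcripts, 33.7% of the 50-base words of Gstp1 also occur in Gstp2, and 49.1% of those of Gstp2 occur in Gstp1. The first 60 coding bases hold 6 of the 12 differences and are shown here, with capitals for the bases that differ.
Gstp1: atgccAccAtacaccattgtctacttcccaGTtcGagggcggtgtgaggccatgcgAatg
Gstp2: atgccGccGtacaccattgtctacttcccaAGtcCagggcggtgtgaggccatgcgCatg
Ugt2b37 (chr5:87240493-87254804, minus strand) and Ugt2b38 (chr5:87409942-87424203, minus strand) differed in opposite directions between the sexes in the counts of old vehicle mice, and their coding sequences of 1593 bases differ at 94, an identity of 94.1%. Their coding bases 480 to 539 hold 12 of these differences, again in capitals.
Ugt2b37 (chr5:87254232-87254291): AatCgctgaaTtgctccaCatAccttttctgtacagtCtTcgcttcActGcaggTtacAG
Ugt2b38 (chr5:87423633-87423692): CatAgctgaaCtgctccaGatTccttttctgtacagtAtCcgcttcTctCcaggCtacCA

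The RefSeq table for GRCm38.p6 held a promoter for 36 of the 40 members, and the 250 bases before the start were searched on both strands for 4 motifs. The HNF1 half-site GTTAAT was in 7 of the 36 (19.4%) against 7.49% of the 27025 genes with a promoter in that table. The other shares were closer: the core of the antioxidant response element, TGACNNNGC, was in 4 of 36 (11.1% against 11.5%), the STAT5 site TTCNNNGAA in 3 of 36 (8.33% against 8.13%) and the p53 half-site in 2 of 36, Gstt3 and Ugt1a7c (5.56% against 8.2%). A match describes letters and shows no binding. Of the 7 members with the HNF1 half-site, 4 were UGT1A genes, and 3 of these and the UGT2A member are printed with 15 bases on each side and the motif in capitals, GTTAAT on the gene's strand or ATTAAC where it lies on the other. The left flank of the Ugt2a3 site holds a further match, in lower case.
Ugt1a1 (chr1:88211903-88211938, plus strand): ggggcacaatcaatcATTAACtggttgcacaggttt
Ugt1a6a (chr1:88134744-88134779, plus strand): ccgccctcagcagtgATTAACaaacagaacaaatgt
Ugt1a9 (chr1:88070673-88070708, plus strand): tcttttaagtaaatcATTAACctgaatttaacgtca
Ugt2a3 (chr5:87337222-87337257, minus strand): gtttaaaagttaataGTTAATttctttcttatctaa
The antioxidant response core was in the promoters of Gsta3, Gstm5, Gstm7 and Mgst1. Those of the highly expressed Mgst1, on the opposite strand, and Gsta3 read as follows.
Mgst1 (chr6:138140456-138140494, plus strand): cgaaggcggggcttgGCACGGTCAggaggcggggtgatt
Gsta3 (chr1:21240449-21240487, plus strand): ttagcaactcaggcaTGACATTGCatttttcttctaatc
The STAT5 site was in the promoters of Gsta1, Gstm6 and Ugt1a6a. The Gsta1 and Gstm6 sites are printed as examples, and any link of such sites to the sex differences below was not tested.
Gsta1 (chr9:78230492-78230530, plus strand): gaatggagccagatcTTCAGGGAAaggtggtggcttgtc
Gstm6 (chr3:107943503-107943541, minus strand): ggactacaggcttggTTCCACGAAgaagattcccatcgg

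To compare genes with each other, normalized counts, scaled to library size (CPM), were divided by the length of each gene's exons. By this level per length the mu-class Gstm1 was highest at 1307 CPM per kb, as the mean of the 6 group means, followed by Mgst1 at 879.8, Gstp1 at 469 and Gsta3 at 352. Over all exon bases the highest UGT was Ugt2b5 at 309 CPM per kb, then Ugt2b36 at 229.5. This order depends on the measure. Over unshared exon bases and by deposited FPKM (327 against 305) Ugt1a1 was above Ugt2b5. The leading members of the other classes were Gstt1 of the theta class at 192, Gstz1 at 116, Ugt3a2 at 98.2, Ugt2a3 at 98.0, Gstk1 at 65.7 and Gsto1 at 45.2 CPM per kb. Gstz1 isomerises maleylacetoacetate in tyrosine breakdown, Gsto1 acts as a thioltransferase, and Gstk1 is found in mitochondria and peroxisomes. The members thus spanned from 1307 down to 0.0580 CPM per kb in Mgst2, which passed the filter on low counts in none of the comparisons.

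The level of the UGT1A genes depended on how shared exons were handled. These genes have separate first exons joined to the same last exons, and between 17.3% and 49.7% of their exon bases belong to no other gene. Ugt1a1, the enzyme that glucuronidates bilirubin, was at 87.7 CPM per kb over all its exon bases and at 507 over the bases it does not share. Over unshared bases Ugt1a5 was at 99.2, Ugt1a6b at 53.1, Ugt1a9 at 40.1 and Ugt1a6a at 13.0 CPM per kb, and Ugt1a10 and Ugt1a7c were under 1. How reads that fall in shared exons were counted is not given in the sources used here. In the pi class the limit is another one, as Gstp1 and Gstp2 are alike in sequence but share no annotated exon bases. Gstp2 was at 0.474 to 27.4 CPM in the counts but at 82.7 to 1248 FPKM in the deposited Cufflinks values. How Cufflinks was set to assign reads that match several places is not given in the sources used here. Values of Gstp2 are therefore uncertain, and those of Gsta1, where 90.5% of the 50-base words of its transcripts also occur in other genes, are too. The measures also lay far apart for Ugt2b38, at 0.678 CPM per kb and 16.8 FPKM with 37.4% of its words shared. For Ugt1a7c they were 0.191 CPM per kb over all exon bases and 11.3 FPKM, with 53.7% shared.

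**Figure D1:**
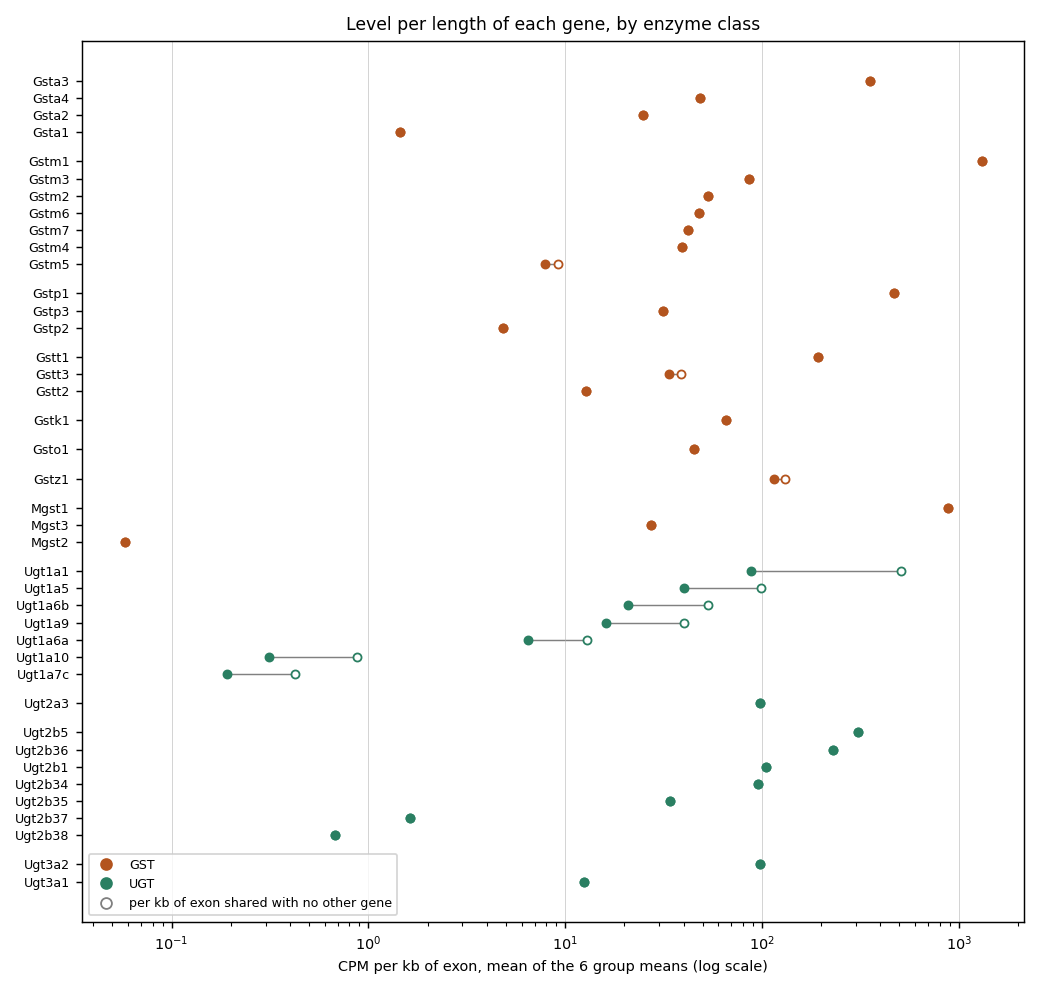
Level per length of each of the 40 genes in CPM per kb of exon on a log axis, as the mean of the 6 group means, grouped by enzyme class; filled points use all exon bases and open points only bases shared with no other gene. Gstm1 lies farthest to the right at 1307 CPM per kb, and the open point of Ugt1a1 at 507 lies well above its filled point at 87.7.

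Together the 23 GSTs took a mean of 0.807% of normalized counts in young vehicle females and 0.926% in young vehicle males, and the 17 UGTs took 0.304% and 0.329%. In females the GST sum was 8069 ± 795 (SD, n = 5) CPM in young vehicle mice, 6496 ± 445 (SD, n = 4) in old vehicle mice and 6456 ± 521 (SD, n = 5) in HDM201-treated mice. In males it was 9264 ± 512 (SD, n = 4), 8861 ± 930.4 (SD, n = 4) and 7663 ± 971 (SD, n = 5) CPM in the same order. Young and old females overlapped in this sum only between 6969 CPM, the lowest young value, and 7017, the highest old value. The UGT sum of females was 3044 ± 307 (SD, n = 5), 2551 ± 52.5 (SD, n = 4) and 2579.9 ± 114 (SD, n = 5) CPM. That of males was 3291 ± 177 (SD, n = 4), 2998 ± 433 (SD, n = 4) and 2260.3 ± 447 (SD, n = 5) CPM. Young and old vehicle females did not overlap in the UGT sum, with 2770.4 CPM as the lowest young and 2627 as the highest old value. The lowest UGT sums of the 27 mice were 1664 and 1930.0 CPM, in HDM201-treated males 4 and 5. These sums are descriptions and were given no test.

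**Figure D2:**
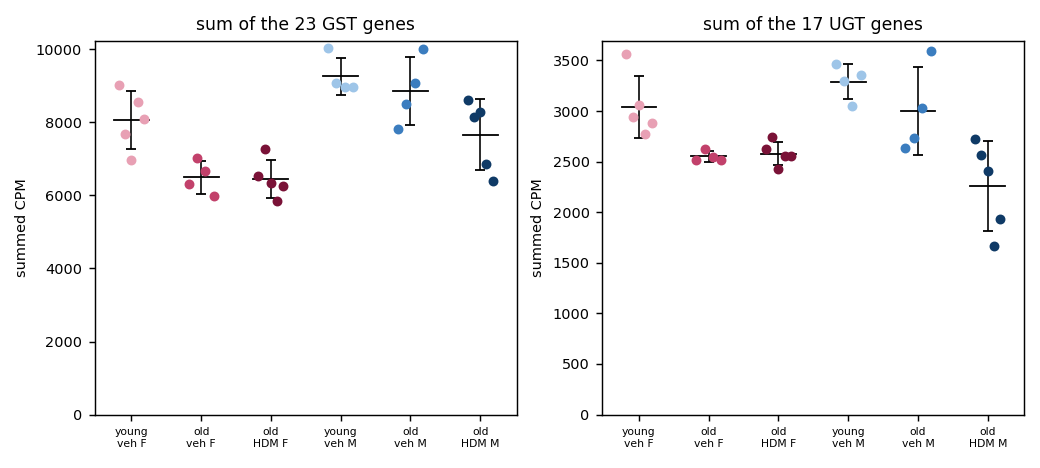
Summed CPM of the 23 GST genes (left) and the 17 UGT genes (right) in each mouse, with points for mice, horizontal lines for group means and bars for 1 SD. Old vehicle females lie below young vehicle females in the UGT sum, and HDM201-treated males 4 and 5 lie lowest at 1664 and 1930.0 CPM.

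**Figure D3:**
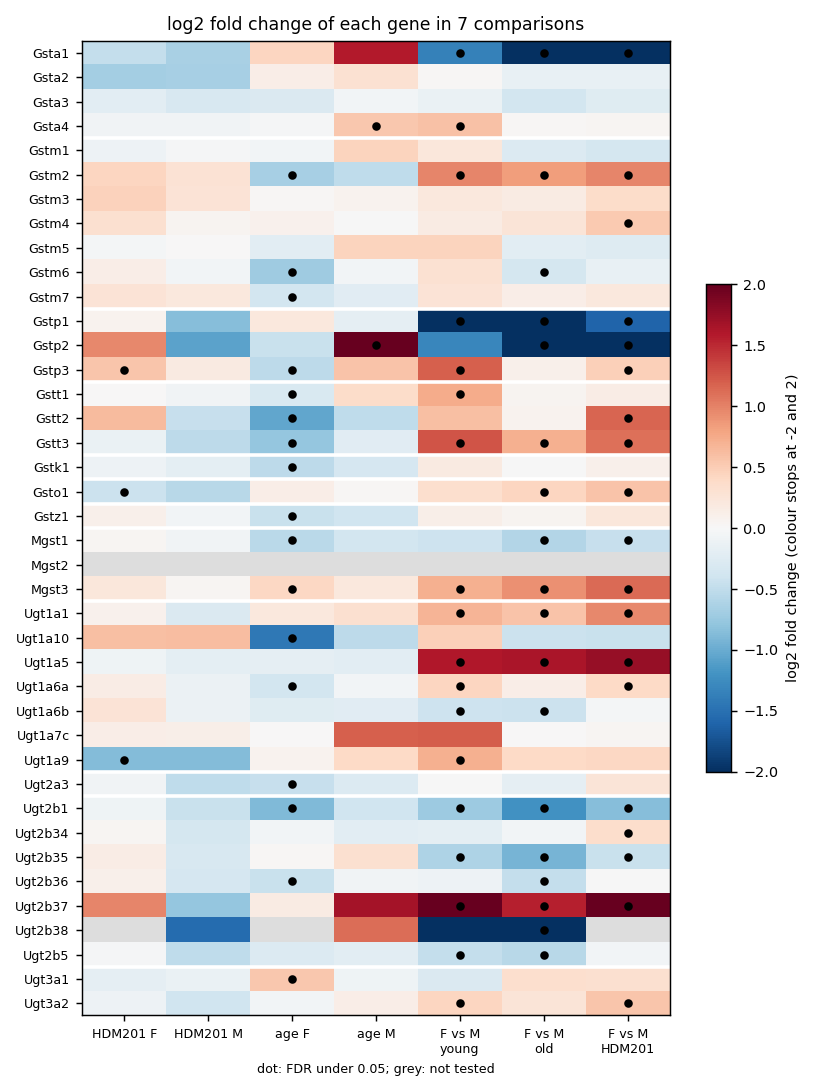
log2 fold change of each gene in 7 comparisons: HDM201 against vehicle and old against young vehicle in females (F) and males (M), and females against males in 3 pairs of groups. Red is higher in the first-named group, black dots mark FDR under 0.05, and grey cells were not tested. Dots are dense in the sex comparisons and in old against young females, with 3 dots for HDM201 in females and none in males.

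Sex was the contrast in which the most members passed the test, and old against young females came next. Females and males were compared in 3 pairs of groups that share no mice. In young vehicle mice 18 of 39 members tested passed an FDR of 0.05, 12 higher and 6 lower in females, against 10.5% of all genes tested (5.63% higher and 4.91% lower). In old vehicle mice 18 of 39 passed, 7 higher and 11 lower, against 18% (8.4% and 9.6%). In HDM201-treated mice 19 of 38 passed, 13 higher and 6 lower, against 17.4% (8.92% and 8.51%). The median member differed by 0.23, 0.0035 and 0.18 on the log2 scale, where the median of all genes was -0.004, 8.7e-05 and -0.009. On FPKM values of the same 27 mice limma did not call Gsta1, Ugt1a6a and Ugt1a6b in young mice, Gsta1, Gstm6, Ugt2b37 and Ugt2b38 in old vehicle mice, and Gsta1, Ugt1a6a, Ugt2b1 and Ugt2b35 in HDM201-treated mice. Of 38 members tested in all 3 pairs, 6 were higher in females in every pair (Gstm2, Gstt3, Mgst3, Ugt1a1, Ugt1a5 and Ugt2b37) and 4 were lower in every pair (Gsta1, Gstp1, Ugt2b1 and Ugt2b35). Among 13477 genes, 1.37% were higher and 1.42% lower in every pair.

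The pi class held adjacent genes with opposite sex differences. Gstp1, the abundant soluble pi enzyme of mouse liver, was at 1665, 1273, 1293 and 1961 CPM in young vehicle males, 770.5, 1754, 1029 and 1885 in old vehicle males and 978, 565, 803, 595 and 815 in HDM201-treated males. In females it was at 209, 202, 166, 233 and 230.0 CPM in the young, 199, 257, 247 and 242 in old vehicle mice and 406, 231, 177, 218 and 222 in HDM201-treated mice. Every male exceeded every female, and the log2 difference of females from males was -2.90 ± 0.16 in young vehicle mice, -2.52 ± 0.27 in old vehicle mice and -1.60 ± 0.22 in HDM201-treated mice (FDR 2.53e-07, 0.000367 and 0.000487). Gstp2 was far lower in counts, at 0.474, 0.668, 1.22 and 1.22 CPM in old vehicle females and 12.3, 10.8, 18.0 and 27.4 in old vehicle males (log2 fold change -4.25 ± 0.38 (SE), FDR 0.000118). In HDM201-treated mice it was at 2.82, 0.711, 2.45, 2.00 and 0.799 CPM in females and 9.13, 1.66, 9.86, 10.8 and 8.97 in males (log2 fold change -2.20 ± 0.47 (SE), FDR 0.00739), where 1 male lay within the female range. In young mice Gstp2 was at 2.08, 1.23, 0.728, 1.26 and 0.981 CPM in females and 1.69, 2.06, 2.13 and 6.20 in males, a difference of -1.31 ± 0.41 with FDR 0.0633. Gstp3, next to Gstp2, was instead higher in young females, with 37.9, 46.8, 25.2, 38.5 and 40.4 CPM against 28.2, 11.8, 14.5 and 11.5 in young males (log2 fold change 1.19 ± 0.26 (SE), FDR 0.0134), and 1 male overlapped the females. In old vehicle mice it was at 23.8, 25.5, 25.0 and 29.1 CPM in females and 22.8, 21.1, 29.5 and 23.2 in males, 0.10 ± 0.11 with FDR 0.566. In HDM201-treated mice females were higher again (log2 fold change 0.48 ± 0.15 (SE), FDR 0.0457). The last call was lost without any 1 of 8 mice (FDR up to 0.0921).

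Among the alpha class Gsta1, whose enzyme conjugates glutathione to a broad range of electrophiles, was lower in females in the counts of all 3 pairs but stood close to the counting floor. It was at 0.580, 0.980, 0.553 and 0.281 CPM in old vehicle females and 6.78, 2.03, 3.90 and 1.11 in old vehicle males. HDM201-treated females had 0.470, 0.547, 0.333, 0.490 and 0.376 CPM and males 2.67, 1.50, 2.42, 4.16 and 0.165. Young females had 0.315, 0.666, 0.208, 0.690 and 0.392 CPM and young males 1.09, 0.629, 1.58 and 1.31, with 1 male inside the female range. The log2 differences were -1.35 ± 0.38 in young vehicle mice, -2.51 ± 0.57 in old vehicle mice and -2.31 ± 0.56 in HDM201-treated mice (FDR 0.0436, 0.0156 and 0.0144), and the call in young mice was lost without any 1 of 6 mice (FDR up to 0.122). None of the 3 differences of Gsta1 passed limma on FPKM values, and in young mice the direction turned on log2(FPKM + 0.1), at 0.13 (limma, FDR 0.935). Gsta4, which detoxifies hydroxynonenal, a product of lipid peroxidation, was higher in young females (log2 fold change 0.58 ± 0.082 (SE), FDR 0.0011) and differed by 0.018 ± 0.14 in old vehicle mice (FDR 0.943). Gsta3, the most abundant alpha member, differed by -0.14 ± 0.14, -0.37 ± 0.13 and -0.25 ± 0.16 in the 3 pairs with FDR 0.553, 0.0811 and 0.33.

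In the mu and theta classes the members that passed in all 3 pairs were higher in females. Gstm2 was at 147, 165, 113, 160.2 and 126 CPM in young females and 70.5, 82.1, 86.5 and 48.9 in young males. In old vehicle mice it was at 74.2, 91.5, 104 and 84.1 in females and 55.1, 42.0, 64.5 and 37.9 in males. In HDM201-treated mice it was at 144, 157, 131, 75.2 and 95.7 in females and 41.7, 60.7, 69.2, 100.2 and 31.9 in males. The groups separated in vehicle mice of both ages and overlapped with HDM201, and the differences were 0.97 ± 0.17 in young vehicle mice, 0.83 ± 0.17 in old vehicle mice and 0.97 ± 0.28 in HDM201-treated mice (FDR 0.00361, 0.0102 and 0.0338). With HDM201 the call of Gstm2 was lost without any 1 of 6 mice (FDR up to 0.079) and that of Gstt3 without any 1 of 4 mice (FDR up to 0.0677). Gstt3 was at 271, 246, 209, 269.9 and 243 CPM in young females and 138, 122, 80.7 and 72.6 in young males, at 127, 136, 165 and 146 and 65.8, 75.0, 102 and 108 in old vehicle mice, and at 156, 169, 111, 83.5 and 143 and 69.3, 97.8, 74.5, 25.9 and 37.5 in HDM201-treated mice. Its log2 differences were 1.26 ± 0.18 in young vehicle mice, 0.71 ± 0.16 in old vehicle mice and 1.10 ± 0.31 in HDM201-treated mice (FDR 0.00118, 0.0142 and 0.0295). Gstt1, the theta member with the highest level per length, was higher in young females (log2 fold change 0.73 ± 0.17 (SE), FDR 0.017), and Gstt2 in HDM201-treated females (log2 fold change 1.17 ± 0.14 (SE), FDR 0.000174). Gstm1, the member with the highest level per length in counts and next to Mgst1 by deposited FPKM, was not called in any comparison: it differed by 0.23 ± 0.11, -0.27 ± 0.17 and -0.35 ± 0.14 between the sexes, with FDR 0.206, 0.286 and 0.119. Gstm6 was lower in old vehicle females (log2 fold change -0.35 ± 0.078 (SE), FDR 0.0155). The call of Gstm6 rested on old vehicle female 4 (FDR 0.0519 without it), and that of Gstt1 on young vehicle male 4 (FDR 0.058 without it).

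The microsomal members Mgst1 and Mgst3 differed in opposite directions. Mgst3, which takes part in making the cysteinyl leukotrienes, was at 29.4, 26.8, 26.5, 33.8 and 35.7 CPM in young females, 37.5, 42.3, 41.4 and 38.5 in old vehicle females and 42.8, 49.1, 45.4, 51.5 and 48.5 in HDM201-treated females. In males it was at 25.3, 16.3, 17.4 and 15.2, 25.4, 20.4, 20.8 and 17.8 and 17.5, 24.3, 22.0, 25.7 and 18.0 CPM. No female of a pair overlapped its males, with log2 differences of 0.71 ± 0.15 in young vehicle mice, 0.92 ± 0.11 in old vehicle mice and 1.13 ± 0.11 in HDM201-treated mice (FDR 0.0138, 0.000612 and 3.16e-05). Mgst1, the abundant enzyme of the endoplasmic reticulum and outer mitochondrial membrane, was at 1416, 1263, 1217 and 1173 CPM in old vehicle females and 1489.5, 1825, 1704 and 2570.5 in old vehicle males (log2 fold change -0.58 ± 0.16 (SE), FDR 0.0301), a call lost without any 1 of 4 mice (FDR up to 0.0832). In HDM201-treated mice it was at 1372, 1385, 1246, 1353 and 1274 in females and 2190.2, 1804, 1682, 1509 and 1819.9 in males (log2 fold change -0.46 ± 0.11 (SE), FDR 0.012). In young mice the difference was -0.42 ± 0.13 with FDR 0.0596. Gsto1 was higher in females in old vehicle mice, at 113, 121, 117 and 120.5 against 86.4, 78.2, 102 and 82.9 CPM (log2 fold change 0.44 ± 0.089 (SE), FDR 0.00981), and in HDM201-treated mice, at 112, 88.1, 90.8, 70.4 and 81.1 against 61.8, 74.3, 54.1, 48.2 and 55.9 CPM (log2 fold change 0.57 ± 0.13 (SE), FDR 0.0114).

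**Figure D4:**
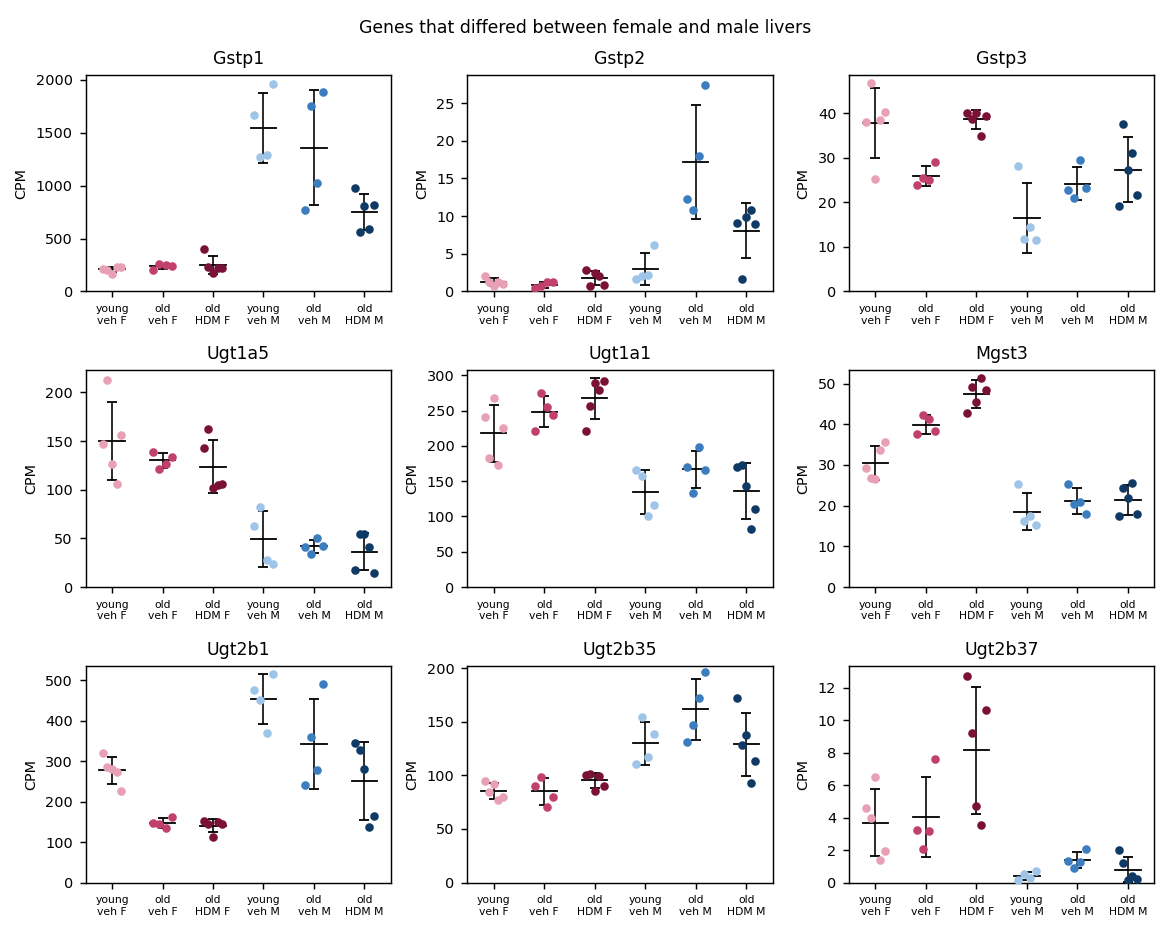
CPM in each mouse of 9 genes that differed between the sexes, with points for mice, lines for group means and bars for 1 SD; each vertical axis starts at 0. The means of the female groups (left) lie below those of the male groups (right) for Gstp1, Ugt2b1 and Ugt2b35 and above them for Ugt1a5, Ugt1a1, Mgst3 and Ugt2b37; Gstp1 reaches 1961 CPM in a young male and no more than 406 CPM in any female.

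Of the UGT1A genes, Ugt1a5 had the largest sex difference. It was at 147, 213, 127, 106 and 156 CPM in young females, 139, 121, 127 and 134 in old vehicle females and 143, 162, 102, 105 and 106 in HDM201-treated females. The males had 62.8, 82.6, 27.4 and 23.4, 41.6, 34.0, 49.9 and 42.2 and 17.8, 54.5, 54.3, 41.2 and 14.6 CPM. No group of females overlapped the males it was compared with, and the differences were 1.61 ± 0.34 in young vehicle mice, 1.64 ± 0.11 in old vehicle mice and 1.75 ± 0.34 in HDM201-treated mice (FDR 0.0129, 1.97e-05 and 0.00408). Ugt1a1 was at 241, 182, 268, 172 and 225, 221, 274, 254 and 244 and 221, 256, 289, 279 and 291 CPM in young vehicle, old vehicle and HDM201-treated females. In the males it was at 165, 158, 99.9 and 116, 169.8, 133, 198 and 166 and 171, 173, 143, 81.8 and 111 CPM. These groups did not overlap within a pair either, with differences of 0.69 ± 0.17 in young vehicle mice, 0.58 ± 0.12 in old vehicle mice and 0.96 ± 0.18 in HDM201-treated mice (FDR 0.0271, 0.0114 and 0.00332), and the call in young mice was lost without any 1 of 5 mice (FDR up to 0.0847). Ugt1a9 was higher in young females (log2 fold change 0.72 ± 0.15 (SE), FDR 0.0115). The adjacent Ugt1a6a and Ugt1a6b, which conjugate small phenols, were at 0.44 ± 0.088 (FDR 0.00916) and -0.42 ± 0.10 (FDR 0.0247) in the counts of young mice. The direction of Ugt1a6a turned on FPKM values of the same mice, at -0.21 (limma, FDR 0.193), and in HDM201-treated mice it was 0.40 ± 0.093 in counts (FDR 0.0114) and -0.21 (limma, FDR 0.235) on FPKM values. Neither gene passed limma on FPKM values in young mice, and the call of Ugt1a6b was also lost without any 1 of 4 mice (FDR up to 0.0569). As 79.6% of the 50-base words of Ugt1a6b also occur in Ugt1a6a, the split between them is uncertain.

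The UGT2B genes, which conjugate steroids and drugs among others, were lower in females wherever they passed, except for Ugt2b37 in all pairs and Ugt2b34 in HDM201-treated mice (0.35 ± 0.087, FDR 0.0168). Ugt2b1 was at 320.3, 285, 281, 274 and 226 CPM in young females and 477, 452, 369 and 516 in young males. In old vehicle mice it was at 148, 144, 135 and 163 in females and 241, 359, 279 and 491 in males. HDM201-treated females had 152, 144, 112, 149.9 and 144 CPM and males 346, 328, 279, 136 and 164. Vehicle groups did not overlap and the HDM201-treated groups did, with differences of -0.72 ± 0.13 in young vehicle mice, -1.21 ± 0.19 in old vehicle mice and -0.85 ± 0.23 in HDM201-treated mice (FDR 0.00404, 0.00322 and 0.0243). Ugt2b35 was at 94.4, 84.3, 91.6, 76.7 and 79.7, 90.5, 98.9, 70.7 and 79.9 and 100.2, 102, 85.9, 99.3 and 90.2 CPM in young vehicle, old vehicle and HDM201-treated females and at 110.3, 154, 117 and 138, 131, 147, 172 and 196 and 172, 129, 138, 92.6 and 114 in the males. Its differences were -0.62 ± 0.11 in young vehicle mice, -0.92 ± 0.14 in old vehicle mice and -0.45 ± 0.14 in HDM201-treated mice (FDR 0.00537, 0.00255 and 0.0393), and the call with HDM201 was lost without any 1 of 8 mice (FDR up to 0.0903). That of Ugt2b1 with HDM201 was lost without HDM201-treated female 3, HDM201-treated male 1 or HDM201-treated male 2 (FDR 0.0543 to 0.0594 without them). Ugt2b5, the UGT with the highest level per length over all exon bases, was lower in young (log2 fold change -0.48 ± 0.13 (SE), FDR 0.0404) and old vehicle females (log2 fold change -0.56 ± 0.14 (SE), FDR 0.0209), and differed by -0.052 ± 0.14 in HDM201-treated mice (FDR 0.843). Its calls were lost without any 1 of 8 mice (FDR up to 0.113) in young and without old vehicle female 1, old vehicle female 2 or old vehicle female 4 (FDR 0.0506 to 0.0587 without them) in old mice. Ugt2b37 was at 4.60, 4.00, 6.50, 1.38 and 1.96 CPM in young, 3.27, 2.09, 3.15 and 7.64 in old vehicle and 12.7, 9.19, 4.70, 3.56 and 10.6 in HDM201-treated females. In males it was at 0.181, 0.514, 0.273 and 0.724, 1.30, 0.869, 1.26 and 2.07 and 2.00, 1.18, 0.173, 0.427 and 0.220 CPM. No pair overlapped although all values were low, and the differences were 3.05 ± 0.52 in young vehicle mice, 1.55 ± 0.42 in old vehicle mice and 3.32 ± 0.55 in HDM201-treated mice (FDR 0.00349, 0.0307 and 0.00156). The call in old vehicle mice was lost without any 1 of 5 mice (FDR up to 0.0675). Its neighbour Ugt2b38 went the other way in the counts of old vehicle mice, at 0.0527, 0.0445, 0 and 0.0469 CPM in females and 0.938, 4.58, 1.44 and 8.97 in males. The female values lay under 1 count in the shallowest library, 0.0607 CPM. Ugt2b38 thus passed the filter on low counts through the males alone, and its call (edgeR, FDR 0.00291) adds no support.

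Ugt3a2, which uses sugars other than glucuronic acid, was higher in females among young (log2 fold change 0.43 ± 0.12 (SE), FDR 0.0472) and HDM201-treated mice (log2 fold change 0.55 ± 0.13 (SE), FDR 0.0112), the former call being lost without any 1 of 7 mice (FDR up to 0.129), and Ugt2a3 was not called in any sex comparison (FDR 0.989, 0.16 and 0.199). Gstk1 and Gstz1 likewise had no call between the sexes; their FDR lay between 0.0798 and 0.994. The Kupffer cell and macrophage markers passed as higher in females for 5 of 7 in young vehicle mice, 2 of 7 in old vehicle mice and 0 of 7 in HDM201-treated mice, and endothelial markers for 2, 5 and 0 of 6. In young vehicle females 2 of 5 cholangiocyte and 2 of 6 stellate cell markers were higher too. Hepatocyte markers were lower in females for 0, 2 and 1 of 7 in the 3 pairs. Of all genes 5.63%, 8.4% and 8.92% were higher in females in the 3 pairs, and 4.91%, 9.6% and 8.51% lower. The part of these cells in the sex differences was not tested.

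Old and young vehicle mice were compared next, with substrain changing along with age. In females 17 of 38 members passed, 2 higher and 15 lower in old mice, against 31.8% of all genes (16.8% higher and 15% lower), so members that passed were mostly lower where those of the whole table were split almost evenly. The median member was at -0.23 on the log2 scale and the median of all genes at 0.0094. By type, 10 GSTs and 5 UGTs were lower, and Mgst3 and Ugt3a1 were higher. Of the 17 calls, those of Gstm7, Gstt1, Gstz1 and Ugt1a10 did not pass limma on FPKM values. In males 2 of 39 members passed, both higher, against 3.69% of all genes (2.76% higher), and the median member was at -0.054. Old and young males had 4 mice each.

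All 3 theta-class genes were lower in old females. Gstt3 fell from 271, 246, 209, 269.9 and 243 CPM in young to 127, 136, 165 and 146 in old females without overlap (log2 fold change -0.77 ± 0.10 (SE), FDR 0.000251). Gstt2 went from 73.6 to 110.4 CPM to 27.7 to 58.7 (log2 fold change -1.03 ± 0.19 (SE), FDR 0.00171), and Gstt1 changed least (log2 fold change -0.31 ± 0.09 (SE), FDR 0.0197). The call of Gstt1 was lost without old vehicle female 1 or old vehicle female 4 (FDR 0.066 to 0.0692 without them). In the mu class Gstm6 was at 141, 121, 114, 127 and 119 CPM in young and 79.7, 72.6, 77.3 and 70.4 in old females (log2 fold change -0.71 ± 0.082 (SE), FDR 0.000108). Gstm2 was also lower, at -0.66 ± 0.13 (FDR 0.00219), and so was Gstm7. Both mu genes named with values were without overlap between the groups. Mgst1 went from 2172, 1780.1, 1649, 2105 and 1607 CPM to 1416, 1263, 1217 and 1173 (log2 fold change -0.53 ± 0.11 (SE), FDR 0.00336), while Mgst3 rose from 29.4, 26.8, 26.5, 33.8 and 35.7 to 37.5, 42.3, 41.4 and 38.5 (log2 fold change 0.41 ± 0.099 (SE), FDR 0.00713). Gstk1 was lower in old females at -0.52 ± 0.081 (FDR 0.000654) and Gstz1 fell too. Gstp3 was lower at -0.52 ± 0.14 (FDR 0.015), with 1 young female among the old values. Gstp1 differed by 0.21 ± 0.11 with FDR 0.174, and no alpha-class gene passed in females.

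Of the UGTs, Ugt2b1 went from 320.3, 285, 281, 274 and 226 CPM in young to 148, 144, 135 and 163 in old females (log2 fold change -0.89 ± 0.10 (SE), FDR 0.000103). Ugt2a3 (log2 fold change -0.46 ± 0.085 (SE), FDR 0.00181) and Ugt2b36 (log2 fold change -0.45 ± 0.088 (SE), FDR 0.00239) were lower as well, as was Ugt1a6a. The change of largest size, -1.43 ± 0.40 in Ugt1a10 (FDR 0.0171), was between 0.728 to 1.64 CPM in young and 0.166 to 0.656 CPM in old females, close to the counting floor, and was lost without old vehicle female 2 (FDR 0.0565 without it). Ugt3a1, which uses UDP-N-acetylglucosamine in place of UDP-glucuronate, rose from 22.8 to 32.9 to 33.8 to 48.0 CPM (log2 fold change 0.54 ± 0.13 (SE), FDR 0.0064). Ugt1a1 and Ugt1a5 were not called, at 0.21 ± 0.13 and -0.18 ± 0.16 (FDR 0.221 and 0.414).

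In males Gsta4 went from 41.8 to 49.0 CPM in young to 60.2 to 73.5 in old mice (log2 fold change 0.53 ± 0.095 (SE), FDR 0.0193), and Gstp2 from 1.69, 2.06, 2.13 and 6.20 to 12.3, 10.8, 18.0 and 27.4 CPM (log2 fold change 2.48 ± 0.44 (SE), FDR 0.0186). Neither passed limma on FPKM values. The call of Gsta4 was lost without young vehicle male 3 or young vehicle male 4 (FDR 0.06 to 0.0649 without them) and that of Gstp2 without old vehicle male 4 or young vehicle male 3 (FDR 0.053 to 0.0573 without them), and the log2 fold change of Gstp2 on FPKM values of the 27 mice had the opposite sign, at -0.063. Several members that fell in old females also had negative values in old males, with Gstz1 at -0.39 ± 0.11 (FDR 0.0786) and Gstk1 at -0.34 ± 0.11 (FDR 0.116), and none of these passed. An interaction term, the change in females minus that in males, compared the sexes directly. It passed for 2 of 39 members, both lower, against 3.92% of all genes (1.9% lower). These were Gstm6 (log2 fold change -0.64 ± 0.14 (SE), FDR 0.0232) and Gstp2 (log2 fold change -2.92 ± 0.62 (SE), FDR 0.0173), the former lost without old vehicle female 4 or old vehicle male 4 (FDR 0.0525 to 0.0569 without them). On FPKM values of the 27 mice the interaction of Gstp2 was -0.22 (limma, FDR 0.736). In males Gstm6 was at 124, 94.0, 96.8 and 85.2 CPM in young and 102, 89.3, 101 and 89.4 in old mice (log2 fold change -0.054 ± 0.12 (SE), FDR 0.833). Of the Kupffer cell and macrophage markers 6 of 7 were higher in old than in young vehicle females and 2 of 7 in males, and of the hepatocyte markers 1 of 7 was lower in females and 0 of 7 passed in males. Other hepatocyte genes were lower in old females: the pericentral list gave 1 higher and 8 lower of 15, and the periportal list 2 higher and 8 lower of 14. Of all genes 16.8% were higher and 15% lower. In old males these lists gave 0 higher and 1 lower of 15 and 0 higher and 2 lower of 14. The part of these markers and hepatocyte genes in the age comparison was not tested.

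**Figure D5:**
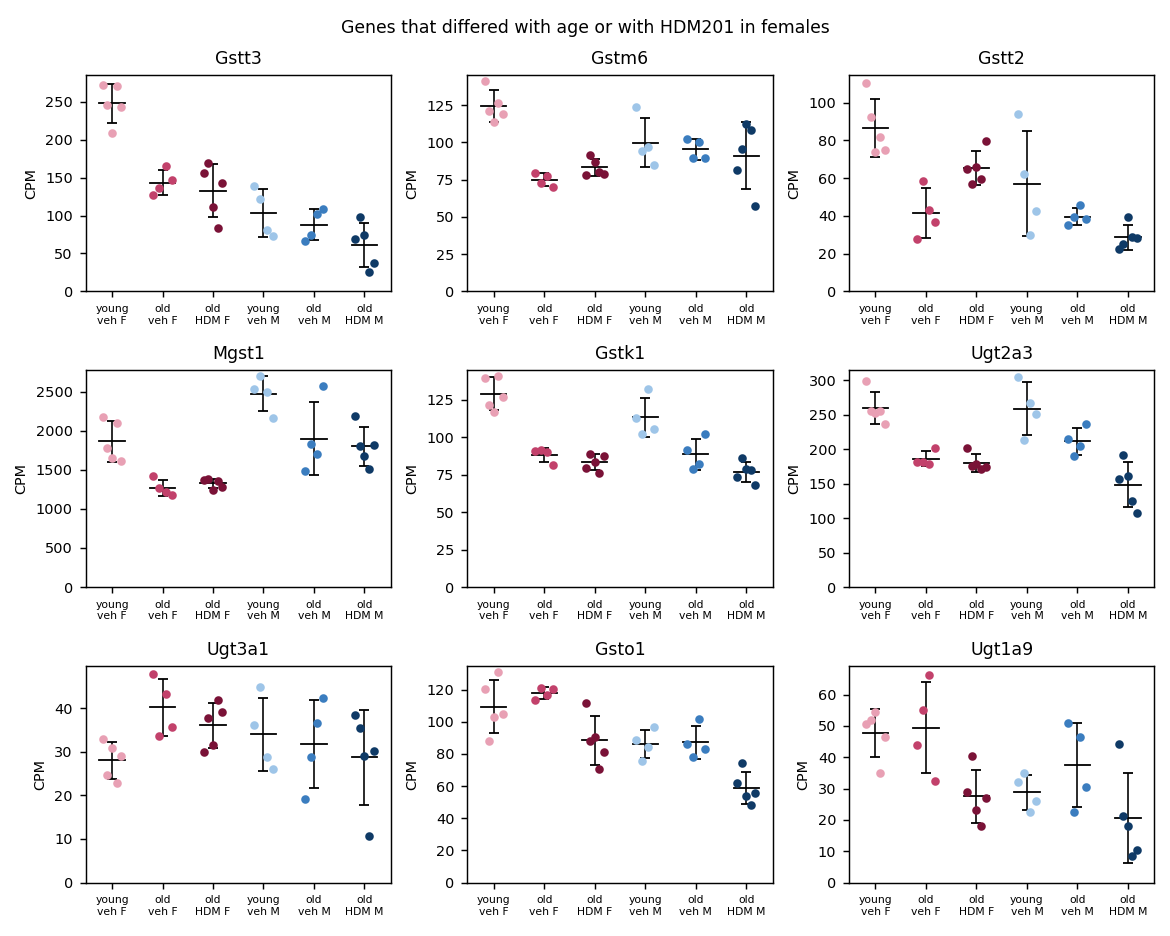
CPM in each mouse of 9 genes that differed with age or with HDM201 in females, with points for mice, lines for group means and bars for 1 SD; each vertical axis starts at 0. Old vehicle females lie below young vehicle females for Gstt3, Gstm6, Gstt2, Mgst1, Gstk1 and Ugt2a3 and above them for Ugt3a1, and Gsto1 is lower in HDM201-treated than in old vehicle females.

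HDM201 was compared with vehicle within old mice of each sex. In females 3 of 38 members passed, 1 higher and 2 lower, against 5.25% of all genes tested (2.35% higher and 2.9% lower), a share close to that of the whole table. The median member was at 0.057 and the median of all genes at 0.001. Gstp3 rose from 23.8, 25.5, 25.0 and 29.1 CPM in vehicle to 40.1, 38.8, 40.0, 35.0 and 39.3 in HDM201-treated females (log2 fold change 0.56 ± 0.075 (SE), FDR 0.00559). The groups did not overlap, and the call held with any 1 mouse left out. Gsto1 fell from 113, 121, 117 and 120.5 CPM to 112, 88.1, 90.8, 70.4 and 81.1 (log2 fold change -0.44 ± 0.11 (SE), FDR 0.0394), also without overlap. Ugt1a9, which conjugates phenols, went from 32.6 to 66.3 CPM to 17.9 to 40.5 (log2 fold change -0.87 ± 0.23 (SE), FDR 0.0488), with overlapping groups. The call of Gsto1 was lost without any 1 of 8 mice (FDR up to 0.114) and that of Ugt1a9 without any 1 of 7 mice (FDR up to 0.138), neither passed limma on FPKM values, and in a fit of all 6 groups together 0 members passed.

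Groups did not overlap for 5 of 38 members in females, Gsto1, Gstp3, Gstm7, Gstz1 and Mgst3, against 10.2% of all genes. Mgst3 was at 37.5, 42.3, 41.4 and 38.5 CPM with vehicle and 42.8, 49.1, 45.4, 51.5 and 48.5 with HDM201, 0.23 ± 0.072 with FDR 0.0859. The leading members of the other classes were not called, with Gstm1 at -0.11 ± 0.12 (FDR 0.659), Mgst1 at 0.046 ± 0.077 (FDR 0.772), Gstp1 at 0.067 ± 0.20 (FDR 0.88) and Ugt2b5 at -0.022 ± 0.088 (FDR 0.913). Of the Kupffer cell and macrophage markers 7 of 7 were lower with HDM201 in females, at a median of -1.05, and 2 of 5 cholangiocyte markers were higher. Of the hepatocyte markers 1 of 7 passed, lower. Their part in the 3 calls was not tested.

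In old males 0 of 39 members passed edgeR's quasi-likelihood test, where 0.00709% of all genes did. At an unadjusted p under 0.05 there were 10 of 39 members, against 12.1% of genes, and DESeq2 called 1 member at the same FDR, against 0.538% of the genes it fitted. The median member was at -0.20 against 0.014 for all genes, and the medians of GSTs and UGTs were -0.068 and -0.34, with 15 of 17 UGTs below 0. The 5 treated males were spread widely. Ugt1a1 was at 169.8, 133, 198 and 166 CPM with vehicle and 171, 173, 143, 81.8 and 111 with HDM201, and Ugt2b1 at 241, 359, 279 and 491 and 346, 328, 279, 136 and 164, the 2 lowest values of each being those of males 4 and 5. Groups did not overlap for 3 members, Gsto1, Gstp2 and Ugt2b36, against 4.03% of all genes. Gsto1 was at 86.4, 78.2, 102 and 82.9 CPM with vehicle and 61.8, 74.3, 54.1, 48.2 and 55.9 with HDM201, -0.56 ± 0.12 with FDR 0.196, and Ugt1a9 differed by -0.87 ± 0.43 (FDR 0.444). Gstp1 was at 770.5, 1754, 1029 and 1885 CPM with vehicle and 978, 565, 803, 595 and 815 with HDM201, -0.85 ± 0.26 with FDR 0.284.

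The interaction of sex and HDM201 passed for 0 of 39 members in edgeR's quasi-likelihood test, against 0.107% of all genes. At an unadjusted p under 0.05 it had 10 of 39 members, against 18.5% of genes, and DESeq2 called 2, against 2.11% of the genes it fitted. The response of females was above that of males for 34 of the 39, with a median of 0.20 against -0.0016 for all genes. The members were measured in the same mice, so they are not 39 separate observations. The member with the lowest FDR was Gstt2, at 0.63 ± 0.18 in females and -0.46 ± 0.15 in males, with an interaction of 1.09 ± 0.25 (FDR 0.0607), named here after its values were seen. For Gstp3, Gsto1 and Ugt1a9 the interaction was 0.38 ± 0.21, 0.13 ± 0.18 and 0.0075 ± 0.53 (FDR 0.341, 0.739 and 0.998), so a different response of the sexes was not detected for the 3 members called in females.

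The genes around these enzymes were read from fixed lists, whose counts are set beside the shares of all genes. In old against young females 31.8% of all genes passed (16.8% higher and 15% lower), and in males 3.69%. With HDM201 5.25% passed in females and 0.00709% in males. Between the sexes 10.5%, 18% and 17.4% passed in young vehicle, old vehicle and HDM201-treated mice. For the genes that make and recycle glutathione, old against young females gave 6 higher and 3 lower of 18, including Gclc, the rate-limiting ligase subunit (0.90 ± 0.16, FDR 0.0017), and Gss, which completes glutathione (0.83 ± 0.11, FDR 0.000193). Old against young males gave 1 higher and 0 lower of 18. Between the sexes the list gave 1 higher and 2 lower of 18 in young vehicle mice, 3 higher and 4 lower of 18 in old vehicle mice and 4 higher and 3 lower of 18 in HDM201-treated mice, led by Nat8, which acetylates cysteine conjugates on the way to mercapturates, at -4.24 ± 0.35, FDR 1.13e-05 in young mice. The list of peroxidases and peroxiredoxins, which also holds the glutaredoxin Glrx5, gave 1 higher and 8 lower of 17 in old against young females. The secreted peroxidase Gpx3 was higher (1.16 ± 0.14, FDR 0.000139), and the lowered genes included Glrx5 (-0.57 ± 0.10, FDR 0.00153). Across the lists for glutathione synthesis, peroxidases, UDP-glucuronate supply and exporters there was 1 call with HDM201 in either sex, the phospholipid flippase Abcb4 in females (0.52 ± 0.086, FDR 0.00999).

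For the supply of UDP-glucuronate, Ugp2, which makes the precursor UDP-glucose, was lower in old than in young females (-0.84 ± 0.091, FDR 7.39e-05), and its interaction of sex and age passed (-1.13 ± 0.20, FDR 0.008). Between the sexes this list gave 1 higher and 2 lower of 11 in young vehicle mice, 0 higher and 3 lower of 11 in old vehicle mice and 0 higher and 3 lower of 11 in HDM201-treated mice, and the carrier Slc35d1, which brings UDP-glucuronate into the endoplasmic reticulum, was lower in females in each, for example -0.49 ± 0.073, FDR 0.00242 in old vehicle mice. The exporters that carry conjugates out of the cell gave 1 higher and 1 lower of 10 in young vehicle mice, 4 higher and 1 lower of 10 in old vehicle mice and 5 higher and 1 lower of 10 in HDM201-treated mice. Of all genes 10.5%, 18% and 17.4% passed in these pairs. Abcc4, a basolateral exporter, was higher in old vehicle females than males (1.97 ± 0.26, FDR 0.00136) and higher in old than in young females (1.87 ± 0.23, FDR 0.000152), while Abcg2 was lower in females in all 3 pairs, at -0.81 ± 0.14, FDR 0.00367 in young mice.

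NRF2 target genes outside the members gave 8 higher and 1 lower of 21 in old against young females, where 16.8% of all genes were higher and 15% lower, among them Hmox1 (1.23 ± 0.21, FDR 0.00109) and Osgin1 (1.34 ± 0.30, FDR 0.00503). CAR, PXR and AhR target genes gave 3 higher and 10 lower of 19 in the same comparison, including Cyp1a1 (-1.38 ± 0.30, FDR 0.00425) and Cyp2b13 (-2.67 ± 0.36, FDR 0.000265), and the lists were not tested against each other. Cyp2b13 was also on a list of female-biased liver genes, which gave 11 higher and 6 lower of 24 in this comparison. Between the sexes the first list gave 3 higher and 4 lower of 21 in young vehicle mice, 3 higher and 1 lower of 21 in old vehicle mice and 3 higher and 2 lower of 21 in HDM201-treated mice, and the second 6 higher and 0 lower of 19 in young vehicle mice, 4 higher and 2 lower of 19 in old vehicle mice and 8 higher and 3 lower of 19 in HDM201-treated mice. The share of all genes that passed was 10.5%, 18% and 17.4% in these pairs. With HDM201 neither list had a call in females or in males by edgeR's quasi-likelihood test, at 6 and 4 of 21 NRF2 genes and 1 and 6 of 19 CAR, PXR and AhR genes with an unadjusted p under 0.05, against 22.5% of all genes in females and 12.1% in males. Of the regulators themselves, Mdm2, a p53 target and the protein HDM201 binds, was higher with HDM201 in females (0.33 ± 0.077, FDR 0.035) and at 0.00089 ± 0.076, FDR 0.998 in males, and Hnf4a was lower in females (-0.27 ± 0.061, FDR 0.032). The growth-hormone-responsive Cux2, known as female-specific in liver, was higher in females in all 3 pairs, at 5.78 ± 0.56, FDR 4.91e-05 in young mice. Nr1i3, which encodes CAR, was higher in young (1.05 ± 0.23, FDR 0.0136) and HDM201-treated females (1.01 ± 0.20, FDR 0.00537).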

How the data were processed

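RNA-seq reads of whole liver were aligned by the authors to mm10 with the STAR 2-pass pipeline, filtered with SAMtools, counted per gene with HTSeq and turned into FPKM with Cufflinks; tool versions and the strand setting are not given in the sources used here. The deposited table of raw counts covered 27 mice, and the deposited FPKM values covered 29 mice. Replicates are separate mice, and p-values measure the spread between them.

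Counts were tested over all genes with edgeR 4.0.16 by its quasi-likelihood test after TMM normalization, keeping genes that passed filterByExpr (min.count 10, min.total.count 15), each comparison on its own groups, with Benjamini-Hochberg FDR under 0.05. The test was tried on simulated data first. CPM per mouse were TMM-normalized over the 27 mice. Exon lengths and coding sequences came from GENCODE M21, in which all 40 members were found by ID and name, and promoters from RefSeq (GRCm38.p6). Alternatives were DESeq2 1.42.0, RLE size factors, no filter, all 6 groups in 1 fit, a replicate block, each mouse left out, FDR under 0.01, and limma 3.58.1 on log2(FPKM + 1) and log2(FPKM + 0.1) for genes reaching 1 FPKM, on which scale changes of low genes are understated. Limma on FPKM of the 27 mice with counts was added after seeing the data. In each comparison the called members of largest change were described, at most 12, with the member of highest level per length in each class, and values per mouse for the 15 members with the most calls. Gsta4, Ugt1a6a, Ugt1a6b and Ugt2b34 between the sexes fall outside this rule and were named after their values were seen. Members, lists and tests were chosen with earlier results of these data known.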

Additional observations from a re-analysis of the deposited data

Results flagged for a closer look

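In 5 of the 90 combinations of a described member and a group, 1 mouse lay far from the rest of its group by Dixon's criterion, which chance alone gives in about 1 of 20 groups. Gstp2 was at 6.20 CPM in young vehicle male 4 against a median of 2.06 in the other young males, and at 1.66 CPM in HDM201-treated male 2 against 9.50 in the other treated males. In HDM201-treated females, Gstp1 was at 406 CPM in mouse 1 against 219.7, Ugt2b1 at 112 CPM in mouse 3 against 147, and Gstp3 at 35.0 CPM in mouse 4 against 39.7.

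The change from young to old vehicle mice differed between females and males by an interaction test for 2 of 39 members, against 3.92% of all genes. It was -2.92 on the log2 scale for Gstp2 and -0.64 for Gstm6, as the change in females minus that in males. Gstp2 did not pass limma on FPKM values, and the call of Gstm6 was lost without either of 2 mice (FDR up to 0.0569).

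The 2 males with FPKM but no counts stood apart in several members. In old vehicle male 1 the FPKM of 7 members lay far above those of the other 4 old vehicle males: Gsta1 at 317 against a median of 10.6, Gsta2 at 312 against 47.0, Gsta4 at 158 against 68.3, Gstm1 at 7097 against 2025, Gstm3 at 1181 against 84.6, Ugt2b35 at 99.3 against 41.5 and Ugt2b36 at 393 against 286. In young vehicle male 5 the FPKM of 6 members lay far below those of the other 4 young males, among them Gstm1 at 468 against 1420 and Ugt2b5 at 121 against 400.4. Neither mouse enters a test on counts.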

How the results depend on the processing

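Of the 79 calls of members over the 9 comparisons, 55 held with every single mouse left out in turn, 79 held in DESeq2, 79 with RLE size factors, 79 without the filter on low counts, 68 with all 6 groups in 1 fit, 47 in limma on log2(FPKM + 1) of 29 mice and 59 in limma on the 27 mice with counts. The number called in old against young females stayed between 14 and 20 in every alternative. For HDM201 in females (3 called) it was 6 in DESeq2, 0 with all 6 groups in 1 fit, 1 in limma with either pseudocount, 1 in limma on the mice with counts, 1 at FDR under 0.01, and 1 to 3 with a mouse left out. For HDM201 in males (0) it was 1 in DESeq2. For old against young males (2) it was 5 in DESeq2, 4 without the filter, 4 with all 6 groups, 0 in limma with either pseudocount, 0 in limma on the mice with counts, 0 at FDR under 0.01, and 0 to 3 with a mouse left out. For females against males it was, in young mice (18), 8 in limma with either pseudocount and 8 at FDR under 0.01. In old vehicle mice (18) it was 9 at FDR under 0.01, and in HDM201-treated mice (19) it was 7. For the interaction of sex and HDM201 (0) it was 2 in DESeq2, 1 without the filter and 0 to 1 with a mouse left out. For that of sex and age (2) it was 7 in DESeq2, 4 without the filter, 4 with all 6 groups, 1 in limma with either pseudocount, 0 at FDR under 0.01 and 1 to 6 with a mouse left out. The sign turned for Gstp2 in old against young males in limma on the mice with counts (-0.063), for Gsta1 in young females against males in limma on log2(FPKM + 0.1) (0.13), and for Ugt1a6a between the sexes, in young mice in limma on the mice with counts (-0.21) and in HDM201-treated mice in all 3 limma fits (-0.21 in each). The cause was not tested.

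Replicate numbers are shared between groups, and the labels do not say whether they mark a litter or batch. Deviations of same-numbered mice correlated at -0.317 to 0.279, above 0.1 in 7 of 27 pairs. These correlations cannot decide what the numbers mark. With a replicate block 59 of the 79 calls held, with 9 of 18 called between old vehicle females and males and 0 of 2 between old and young males.

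Depth limits the members with the fewest counts, Ugt1a10, Ugt1a7c, Gsta1, Ugt2b38 and Mgst2.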
